A study of Mus musculus with 24 samples.

Results

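The genes described here encode the voltage-gated sodium, potassium and calcium channels, the hyperpolarization-activated HCN channels and the other potassium channels of the heart, together with their auxiliary subunits. They were taken from the listed genes by symbol alone: all symbols that begin with Kcn, Cacna, Cacnb or Cacng, the sodium channel alpha and beta subunit symbols (Scn, a number, then a or b) and the HCN channel symbols, with antisense transcripts left out, which removed Kcnq1ot1. In all, 66 of 16978 listed genes matched. The uninjected hearts listed 63 of them among 15667 genes, and the injected hearts listed 66 among 15327, Kcnk13 and Kcnn4 being among those added. The GENCODE M21 annotation (GRCm38) holds 138 protein-coding genes with such symbols, and the others, the sodium channel beta subunits Scn2b and Scn4b among them, were not analysed here.

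RNA was sequenced from hearts of C57BL6 mice at postnatal day 7.5 in 24 libraries, 4 in each of 6 groups. The uninjected groups were the Xinβ knockout (KO), in which a LacZ-Neo cassette replaces parts of exons 6 and 7 and intron 6 of Xinβ (Xirp2) in the germline of all cells, and wild type (WT). In the injected groups, KO and WT pups received subcutaneous AAV9 at postnatal day 1 that carried either GFP or human YAP S127A, a YAP that lacks an inhibitory site of phosphorylation by the Hippo pathway, and are called KO/GFP, WT/GFP, KO/YAP and WT/YAP. Both transgenes were driven by the chicken cardiac troponin T promoter, so that they act in cardiomyocytes, whereas the deletion affects every cell type. The labels name the tissue as heart apex and the study's methods name it as ventricles. Nothing in the labels says that each library is a separate animal, so p-values measure the spread between these libraries. Xirp2 was at 0 to 0.972 CPM (reads scaled to a fixed library total) in the 12 KO libraries and at 56.0 to 168 CPM in the 12 WT libraries. Reads assigned to genes numbered 20490875 to 31154155 per uninjected library and 15015038 to 19444404 per injected library. The tables came from different sequencing facilities and read lengths, so levels are compared within a table only.

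A ventricular action potential begins when sodium channels open and depolarise the membrane. L-type calcium channels then carry the plateau current that triggers contraction, and potassium channels repolarise the cell: Kv4 channels give the early transient outward current, Kv11.1 (Kcnh2) and Kv7.1 (Kcnq1) the delayed rectifier currents, and Kir2 channels the resting potential. HCN channels and T-type calcium channels are known for pacemaker activity, and both are typical of the fetal and newborn ventricle, whose channel makeup changes as cardiomyocytes mature. In whole tissue, fewer cells of a type and less RNA per cell cannot be told apart.

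One library stood apart in a way that touches long channel transcripts. In uninjected KO replicate 1, genes with over 10000 bases of exon lay 0.86 log2 units lower than genes with under 2000 bases, each measured against its own mean over the uninjected libraries, whereas the other uninjected libraries lay between -0.03 and 0.23. Among injected libraries KO/GFP replicate 2 was at -0.37, WT/GFP replicate 1 at -0.23 and the rest between -0.16 and 0.19. In uninjected KO replicate 1 the pore subunit of the cardiac L-type channel, Cacna1c, with 21191 bases of exon, was at 229 CPM against 555, 704 and 534 CPM in the other KO libraries and 445, 453, 350.4 and 387 CPM in WT. Cacnb2 was at 36.8 CPM there and at 108, 124 and 112 CPM in the other KO libraries. Without this library 19 of 63 channel genes were called: Kcnd3 was lost, and Cacna1c, Kcnj12, Kcnk6, Cacnb3 and Cacng6 were among those added. Kcnd3 went from 0.61 ± 0.15 (SE, log2 fold change; limma adjusted p = 0.045) to 0.58 ± 0.16 (adjusted p = 0.0535) and Kcnk6 from -0.45 ± 0.12 (adjusted p = 0.057) to -0.45 ± 0.12 (adjusted p = 0.0483). The KO difference of Kcnj12 without the library was 0.68 ± 0.16 (adjusted p = 0.0361). For Cacnb3 it went from -0.41 ± 0.13 (adjusted p = 0.095) to -0.47 ± 0.11 (adjusted p = 0.0356), and for Cacng6 from -0.75 ± 0.22 (adjusted p = 0.0808) to -0.86 ± 0.23 (adjusted p = 0.0483).

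**Figure D1:**
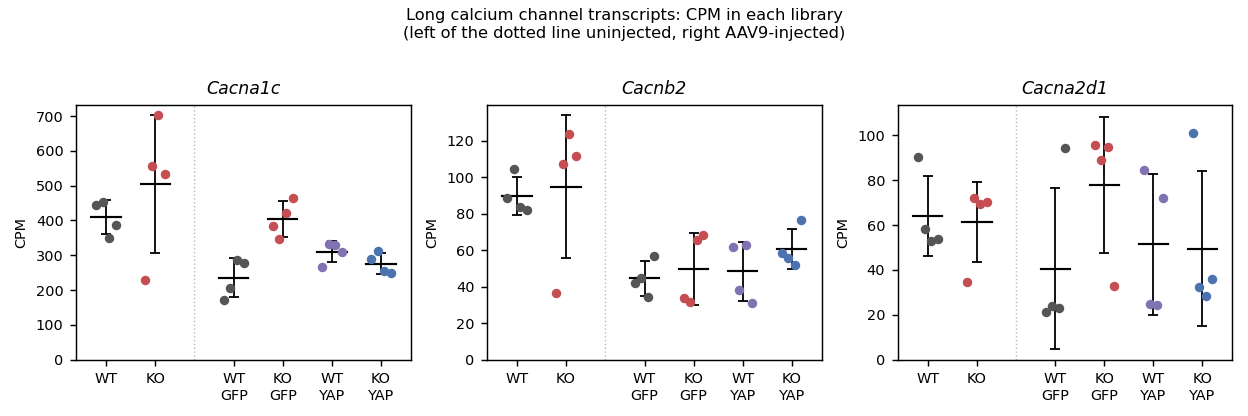
CPM of the calcium channel genes Cacna1c, Cacnb2 and Cacna2d1 in each of 24 libraries (points), with the group mean (line) and SD (bars, n = 4), for uninjected hearts left of the dotted line and injected hearts right of it. Uninjected KO replicate 1, the first KO point, lies at 229 CPM for Cacna1c and 36.8 CPM for Cacnb2, below the other KO libraries, and Cacna2d1 splits the injected libraries into a low and a high range within each group.

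The bases before a start of Hcn2 and of Kcnh2 are shown because these genes moved in opposite directions in the comparisons below. RefSeq windows were also found for them. The windows (GRCm38.p6, 250 bases before to 50 after a start) were matched to 47 of the 66 genes. Of the 7 channel genes that were called in both KO/GFP against WT/GFP and KO/YAP against KO/GFP, 3 had a window (Hcn2, Kcnh2 and Cacna1c). The letters GGAATG, the core of the motif bound by the YAP partner TEAD, were searched on both strands. None of the windows of these 3 genes held them, including 3 windows of Cacna1c. They were in 14.7% of all 32851 windows and in 11 of the 70 windows of channel genes. Counted by gene, they were in 16.6% of 27025 genes and in 11 of the 47 channel genes. With only 3 genes, finding none says little beside these shares. The Hcn2 start is the annotated 5′ end of the gene. The Kcnh2 start lies inside the annotated gene, which spans chr5:24319589-24351604 on the minus strand. The bases before the annotated 5′ end of Kcnh2 had no window and were not searched. The sequences are the 250 bases upstream of these starts, 5′ to 3′ on the gene's strand, all in lower case because no motif was found. Their GC content was 70.4% for Hcn2 and 73.6% for Kcnh2, against a median of 52.4% over all windows.

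Hcn2, chr10:79716384-79716633, plus strand: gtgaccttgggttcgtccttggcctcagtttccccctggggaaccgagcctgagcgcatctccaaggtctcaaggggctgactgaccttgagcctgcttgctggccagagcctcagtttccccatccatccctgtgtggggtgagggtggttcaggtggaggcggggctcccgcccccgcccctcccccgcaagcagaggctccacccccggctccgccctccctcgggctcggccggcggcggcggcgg

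Kcnh2, chr5:24329592-24329841, minus strand: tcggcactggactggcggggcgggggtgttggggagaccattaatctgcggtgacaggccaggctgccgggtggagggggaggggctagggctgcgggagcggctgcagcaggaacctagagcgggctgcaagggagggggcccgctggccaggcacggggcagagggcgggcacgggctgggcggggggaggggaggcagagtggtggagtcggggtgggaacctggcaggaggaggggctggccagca

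Per length of exon, the highest channel gene in uninjected WT hearts was Kcne1, the beta subunit of the slow delayed rectifier, at 99.3 CPM per kb. High levels were also found for the silent Kv subunit Kcng2 at 37.4, the KATP pore Kcnj11 at 32.2 and the two-pore channel Kcnk3 at 31.6 CPM per kb, whose order among themselves changed between groups. In WT/GFP hearts Kcne1 again led at 60.3 CPM per kb, and Kcnk3 came next at 44.9. Lengths are those of all annotated exons of a gene, which can exceed the transcript that the heart makes. Without scaling for length, Cacna1c had the most reads, 409 ± 48.6 CPM (SD, n = 4) in uninjected WT and 236 ± 56.6 in WT/GFP. The median channel gene was at 8.81 CPM in uninjected WT and 5.75 CPM in WT/GFP. In uninjected WT 24 of 63 lay under 5 CPM and 9 above 100 CPM, and in WT/GFP 27 of 66 and 7.

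**Figure D2:**
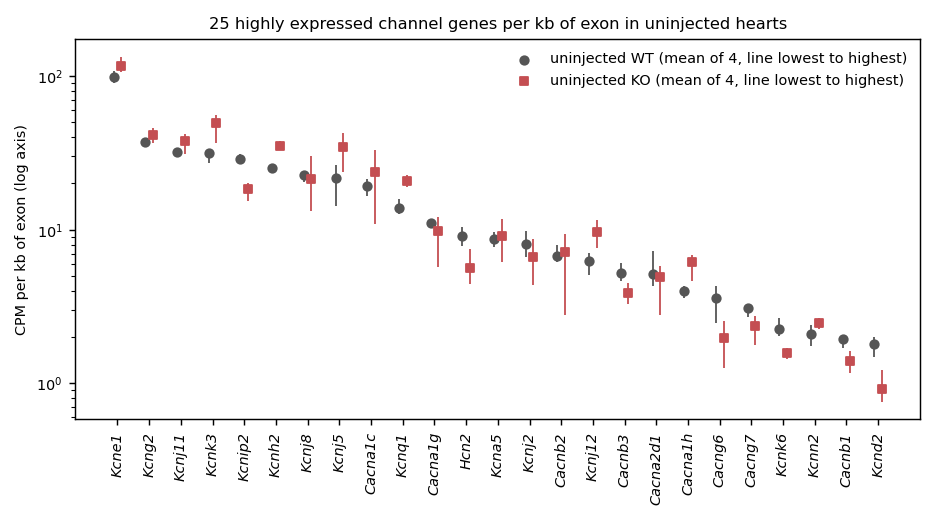
Mean CPM per kb of exon (log axis) of 25 highly expressed channel genes, ordered by their level in uninjected WT hearts, for uninjected WT (circles) and KO (squares), with lines from the lowest to the highest of 4 libraries. Kcne1 leads in both groups, and the KO point lies above the WT point for Kcnk3, Kcnh2 and Kcnq1 and below it for Kcnip2 and Hcn2.

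The following was asked of these genes: what the loss of Xinβ changed in uninjected hearts, what it changed in hearts given AAV9-GFP, and what YAP S127A changed in KO hearts. In uninjected hearts, 14 of 63 channel genes (22.2%) differed between KO and WT, 8 higher and 6 lower, by limma with a Benjamini-Hochberg adjusted p under 0.05 over all genes. The background was 6.69% of 15598 genes tested, with 3.23% higher and 3.46% lower. In KO/GFP against WT/GFP hearts, 11 of the 62 channel genes tested (17.7%) differed, 8 higher and 3 lower, beside 13.7% of 14597 genes, 6.43% higher and 7.22% lower. In KO/YAP against KO/GFP hearts, 15 of 62 (24.2%) differed, 8 higher and 7 lower, beside 14.8% of genes, 7.85% higher and 6.92% lower. The median log2 fold change of the channel genes tested was 0.03 in each of these comparisons, and that of all genes was 0.00, -0.01 and 0.01. The calls ran in both directions. Values after ± are the SD over 4 libraries for CPM and the SE for log2 fold changes, and p-values are from limma throughout. When the libraries were scaled by their read totals alone, a setting added after the data were seen, the median of all genes moved to -0.12, -0.11 and 0.13, and the split became 5 higher and 13 lower, 6 higher and 4 lower, and 10 higher and 2 lower. All genes split into 353 higher and 1241 lower, 590 and 1759, and 2156 and 591 in the same fits.

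Leaving out single libraries moved these counts. In uninjected hearts 19 channel genes were called without KO replicate 1 or without KO replicate 4, 8 without KO replicate 2, 6 without KO replicate 3, 4 without WT replicate 1, 2 or 3, and 5 without WT replicate 4. The KO/GFP count ranged from 7 (without WT/GFP replicate 1 or 2, or KO/GFP replicate 1 or 4) to 14 (without KO/GFP replicate 2), and the KO/YAP count from 8 (without KO/GFP replicate 4) to 15, with 9 without KO/GFP replicate 1, KO/YAP replicate 3 or KO/YAP replicate 4. No channel gene passed in KO/YAP against WT/GFP, in WT/YAP against WT/GFP or in KO/YAP against WT/YAP, where 0.0206%, 0% and 0.0411% of all genes were called by limma. At an unadjusted p under 0.05 the channel genes numbered 4, 9 and 13 of 62, beside 6.08%, 6.93% and 11.1% of all genes. DESeq2 and the edgeR exact test called 1 channel gene in the last comparison, Kcnj5, and none in the others.

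**Figure D3:**
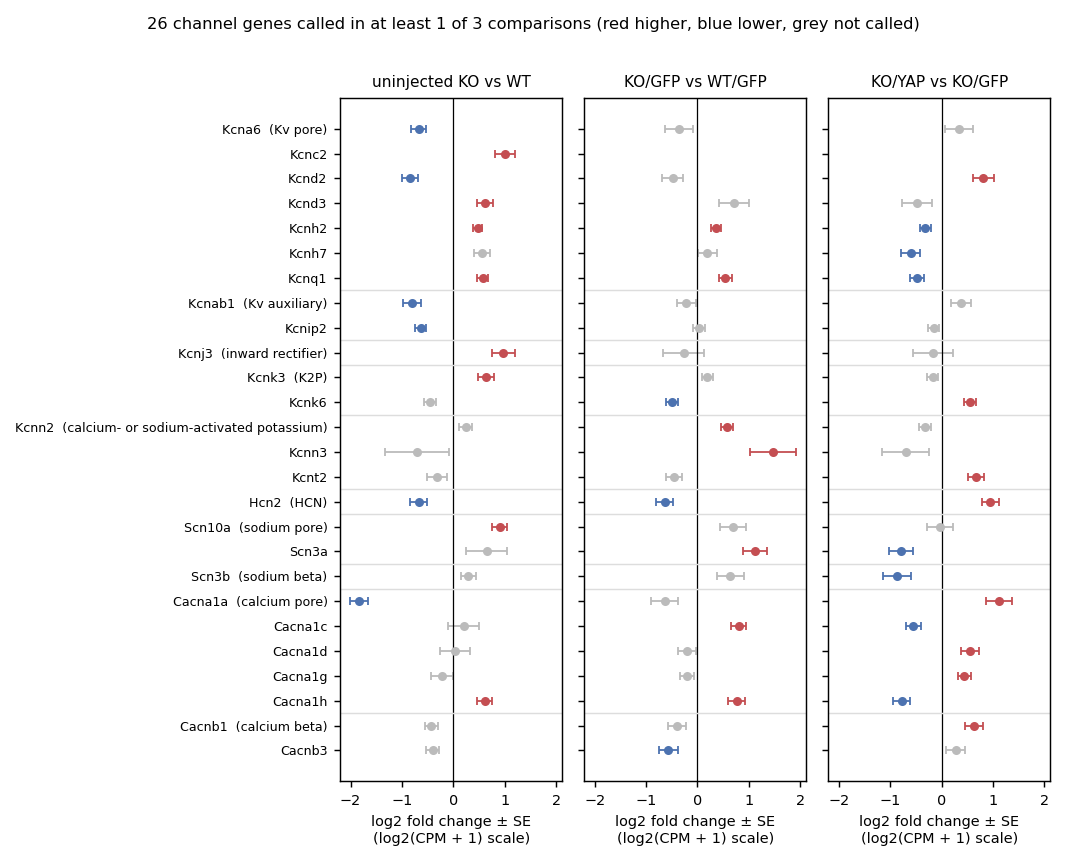
log2 fold change (log2(CPM + 1) scale) with its standard error for 26 channel genes that passed in at least 1 of 3 comparisons, grouped by the role of the protein, with passing values in red (higher) or blue (lower) and the others in grey; Kcnc2 has no value where it was not tested. Kcnh2, Kcnq1 and Cacna1h are higher in both KO comparisons and lower with YAP, and Hcn2 is lower in both and higher with YAP.

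Kcnh2, Kcnq1, Cacna1h and Hcn2 were called in all 3 comparisons. These were also the 4 channel genes called in both KO comparisons, 28.6% of the uninjected calls and 36.4% of the KO/GFP calls. Among all genes 611 were called in both, 58.5% and 30.7% of the respective calls. The KO/GFP libraries enter both injected comparisons, so those 2 results are not independent.

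Kcnh2, the pore of the rapid delayed rectifier, was at 164, 169, 184 and 163 CPM in uninjected KO hearts and at 123, 119, 119 and 128 CPM in WT. The groups did not overlap, and the log2 fold change was 0.47 ± 0.08 (SE; limma adjusted p = 0.0123). KO/GFP libraries held 144, 116, 149.8 and 143 CPM and WT/GFP libraries 106, 104, 111 and 109.7 CPM, again without overlap (0.35 ± 0.10, adjusted p = 0.0252). The uninjected call was lost without WT replicate 1, 2 or 3 (0.46 to 0.47, adjusted p up to 0.0549). The KO/GFP call was lost without WT/GFP replicate 1 or 2 or KO/GFP replicate 1, 3 or 4 (0.31 to 0.34, adjusted p up to 0.0754). With YAP the KO libraries were at 101, 111, 102 and 131 CPM, a range that overlapped KO/GFP, and the fall of 0.31 ± 0.10 on the log2 scale passed at an adjusted p of 0.0426. That last call held in 4 of 16 fits that each left out 1 library, and reached an adjusted p of 0.124 without KO/YAP replicate 1.

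Kcnq1, the pore of the slow delayed rectifier, stood at 92.6, 81.3, 77.5 and 87.0 CPM in uninjected KO and at 57.4, 53.9, 51.5 and 65.1 CPM in WT (0.57 ± 0.11, adjusted p = 0.0155). The call was lost without WT replicate 1, 2 or 3 (0.52 to 0.57, adjusted p up to 0.0637). In injected hearts KO/GFP had 67.2, 49.2, 75.2 and 69.7 CPM and WT/GFP 42.3, 43.5, 48.7 and 42.2 CPM, so that every KO library lay above every WT library in both tables. The KO/GFP difference of 0.54 ± 0.13 (adjusted p = 0.0118) held without any single library. KO/YAP hearts were at 44.1, 45.1, 46.0 and 49.8 CPM, near WT/GFP, and the fall from KO/GFP was 0.47 ± 0.13 (adjusted p = 0.0228), which did not pass without KO/GFP replicate 1, 3 or 4 or KO/YAP replicate 1 or 2 (adjusted p up to 0.0609). Exons of Kcnq1 overlap those of the opposite-strand transcript Kcnq1ot1, and the strand setting of the counting is not given in the sources used here. Kcnq1ot1 itself was at 8.59 ± 2.3 CPM in uninjected KO and 10.8 ± 2.93 in WT, and at 23.3 ± 13.3 in KO/GFP and 23.2 ± 1.07 in WT/GFP (SD, n = 4), and was not called in any comparison. Kcne1, which assembles with Kcnq1, was at 374 ± 40.6 and 319 ± 24.3 CPM in uninjected KO and WT (0.22 ± 0.11, adjusted p = 0.25) and differed by -0.08 ± 0.11 between KO/GFP and WT/GFP (adjusted p = 0.706).

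Cacna1h, a T-type calcium channel, was at 63.7, 66.1, 67.2 and 45.0 CPM in uninjected KO hearts and at 41.4, 42.3, 35.0 and 37.5 CPM in WT (0.61 ± 0.14, adjusted p = 0.0391). KO/GFP libraries held 47.3, 39.1, 34.8 and 47.6 CPM against 22.3, 25.2, 18.5 and 32.9 CPM in WT/GFP (0.77 ± 0.17, adjusted p = 0.00576), and KO/YAP libraries 21.0, 25.2, 22.5 and 27.9 CPM (fell by 0.78 ± 0.17, adjusted p = 0.00505). None of the 3 pairs of groups overlapped, and both injected calls held without any single library. The uninjected call held in 2 of 8 such fits, those without KO replicate 1 or 4, and elsewhere the difference was 0.55 to 0.64 (adjusted p up to 0.12). Its relative Cacna1g, the other T-type channel of the ventricle, showed another pattern: 0.21 lower in KO/GFP than in WT/GFP (SE 0.13, adjusted p = 0.337) and 0.45 ± 0.13 higher in KO/YAP than in KO/GFP (adjusted p = 0.033), with 53.4, 54.5, 55.2 and 39.4 CPM in KO/GFP and 70.8, 60.2, 62.2 and 84.0 CPM in KO/YAP. The YAP call of Cacna1g was lost without replicate 1 or 4 of KO/GFP or of KO/YAP (0.33 to 0.48, adjusted p up to 0.101).

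Hcn2, a pacemaker channel that the ventricle also expresses, went the other way. Uninjected KO libraries were at 14.1, 16.5, 17.2 and 23.9 CPM and WT libraries at 28.4, 24.9, 33.3 and 28.9 CPM, without overlap (-0.68 ± 0.16, adjusted p = 0.0421). That call held in 2 of 8 fits that each left out 1 library, those without KO replicate 1 or 4 (elsewhere -0.61 to -0.74, adjusted p up to 0.128). KO/GFP libraries held 13.6, 15.6, 20.01 and 9.25 CPM and WT/GFP libraries 19.7, 24.4, 22.1 and 24.1 CPM, with 1 KO/GFP library inside the WT/GFP range (-0.64 ± 0.17, adjusted p = 0.0189). This call was lost without WT/GFP replicate 2 or KO/GFP replicate 1 or 4 (-0.45 to -0.62, adjusted p up to 0.0548). In KO/YAP hearts all 4 libraries, at 26.3, 28.2, 29.1 and 29.2 CPM, lay above every KO/GFP and every WT/GFP library (0.95 ± 0.17 against KO/GFP, adjusted p = 0.00157), a call that held without any single library. The sinus node channel Hcn4 was at 13.2 ± 3.77 and 10.00 ± 1.07 CPM in uninjected KO and WT and at 3.99 ± 0.966 and 5.07 ± 0.887 CPM in KO/GFP and WT/GFP, and was not called. The node markers Isl1 and Shox2 were not listed, and the sum of the 4 listed pacemaker and conduction markers was 29.3 to 66.3 CPM in uninjected KO and 33.5 to 34.4 CPM in WT.

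**Figure D4:**
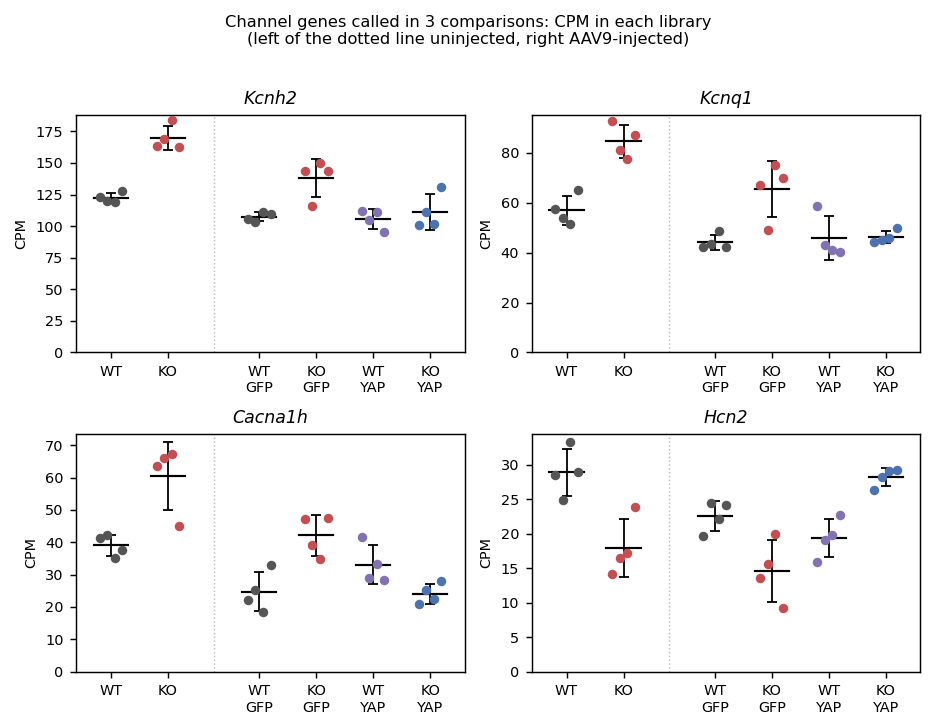
CPM of Kcnh2, Kcnq1, Cacna1h and Hcn2 in each of 24 libraries (points), with the group mean (line) and SD (bars, n = 4), for uninjected hearts left of the dotted line and injected hearts right of it. Hcn2 in KO/YAP lies between 26.3 and 29.2 CPM, above all 4 KO/GFP libraries, and Kcnq1 in KO/YAP lies between 44.1 and 49.8 CPM, close to WT/GFP.

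Among the Kv pores, 4 of 15 were higher and 2 lower in uninjected KO hearts, 2 of 14 were higher in KO/GFP and none lower, and with YAP 1 of 14 was higher and 3 lower. Of all genes, 3.23% were higher and 3.46% lower in uninjected KO, 6.43% and 7.22% in KO/GFP, and 7.85% and 6.92% with YAP. The Kv4 genes of the transient outward current had opposite signs in uninjected hearts. Kcnd2 was at 3.89, 6.29, 4.50 and 4.34 CPM in KO and at 10.3, 8.99, 7.68 and 9.93 CPM in WT, a fall of 0.84 ± 0.16 (adjusted p = 0.0154), while Kcnd3 rose from 1.97 ± 0.185 to 3.597 ± 0.866 CPM (0.61 ± 0.15, adjusted p = 0.045). The Kcnd2 call was lost without WT replicate 1, 2 or 4 (-0.79 to -0.85, adjusted p up to 0.0612). That of Kcnd3 held in 2 of 8 fits, those without KO replicate 2 or 4 (elsewhere 0.57 to 0.65, adjusted p up to 0.134). Kcnip2, which encodes the KChIP2 subunit that Kv4 channels need, was at 66.4, 70.5, 53.5 and 65.7 CPM in KO and at 94.2, 97.9, 99.1 and 108 CPM in WT. Its fall of 0.64 ± 0.11 (adjusted p = 0.0107) held without any single library. In injected hearts Kcnip2 was at 93.9 ± 11.5 CPM in KO/GFP and 92.2 ± 15.97 in WT/GFP (0.03 ± 0.11, adjusted p = 0.884). Whether the effect differs between the tables was not tested. For Kcnd2 the KO/GFP and WT/GFP means were 6.09 ± 1.07 and 9.05 ± 2.47 CPM (-0.48 ± 0.21, adjusted p = 0.135), and YAP raised it in KO hearts to 14.0, 10.3, 12.1 and 9.49 CPM, above every KO/GFP library (0.81 ± 0.21, adjusted p = 0.0138).

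Of the remaining Kv genes, Kcnc2, which encodes Kv3.2, was at 4.08, 4.41, 5.24 and 2.31 CPM in uninjected KO hearts and at 1.05, 1.70, 1.47 and 1.57 CPM in WT (1.00 ± 0.20, adjusted p = 0.0204). It passed in 2 of 8 fits that each left out 1 library, those without KO replicate 1 or 4 (elsewhere adjusted p up to 0.0754). In injected hearts it missed the filter, with 3.41, 4.90, 1.76 and 3.69 CPM in KO/GFP, 0.896, 0.892, 0.435 and 0.548 CPM in WT/GFP and 1.07, 0.584, 0.686 and 0.686 CPM in KO/YAP. KO/GFP was above both other groups in every library. Without the filter it was called in KO/GFP against WT/GFP (1.35, adjusted p = 0.0015) and in KO/YAP against KO/GFP (-1.29, adjusted p = 0.00183). Kcna6 fell from 3.85 ± 0.511 to 2.04 ± 0.399 CPM in uninjected KO (-0.68 ± 0.14, adjusted p = 0.0243), and the Kv beta subunit Kcnab1 from 2.25 ± 0.537 to 0.874 ± 0.402 CPM (-0.80 ± 0.18, adjusted p = 0.0325). Each held in 3 of 8 such fits: Kcna6 was lost without KO replicate 2 or 3 or WT replicate 1, 3 or 4 (adjusted p up to 0.0893) and Kcnab1 without KO replicate 3 or any 1 of the WT replicates (adjusted p up to 0.102). Kcnh7 was called with YAP alone, at 4.12, 4.21, 3.83 and 2.40 CPM in KO/YAP and 4.90, 5.95, 6.49 and 6.50 CPM in KO/GFP (-0.60 ± 0.19, adjusted p = 0.0397). Without KO/GFP replicate 2, the library low in long transcripts, it was -0.60 ± 0.20 (adjusted p = 0.0572). The call was also lost without KO/GFP replicate 3 or 4 or KO/YAP replicate 1, 3 or 4 (adjusted p up to 0.118). Kcna4, which carries the slow transient outward current, and Kcna5, the ultrarapid delayed rectifier, were not called.

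Among the potassium channels that set the resting potential, the acid-sensitive two-pore channel Kcnk3 was at 222, 216.6, 206 and 145 CPM in uninjected KO hearts and at 108, 130.02, 131 and 133 CPM in WT (0.63 ± 0.15, adjusted p = 0.037). That call held without KO replicate 1 or 4 but not without any other single library (0.56 to 0.66, adjusted p up to 0.12). Kcnk3 was at 204 ± 22.6 and 179 ± 19.6 CPM in KO/GFP and WT/GFP (0.19 ± 0.11, adjusted p = 0.285). Another two-pore gene, Kcnk6, was lower in KO/GFP (7.08, 7.58, 7.43 and 6.995 CPM) than in WT/GFP (9.92, 9.59, 11.6 and 11.7 CPM), by 0.50 ± 0.12 on the log2 scale (adjusted p = 0.0111). With YAP it was at 10.8, 9.52, 12.8 and 11.7 CPM (0.55 ± 0.12, adjusted p = 0.0052), and both calls held without any single library. The KO/GFP call of Kcnk6 was lost when only the KO/GFP and WT/GFP libraries were fitted. In uninjected hearts Kcnk6 also did not overlap, at 5.94 to 7.08 CPM in KO and 8.41 to 10.99 CPM in WT, and narrowly missed the threshold (-0.45 ± 0.12, adjusted p = 0.057). Of 7 inward rectifiers, 1 was called in the 3 comparisons, beside 19.0% of all genes tested in any of them. It was Kcnj3, a GIRK channel of acetylcholine-activated current. Kcnj3 was at 9.23, 10.8, 11.7 and 8.44 CPM in uninjected KO and 6.59, 5.55, 2.67 and 4.41 CPM in WT (0.97 ± 0.22, adjusted p = 0.0355). The Kcnj3 call was lost without KO replicate 2 or 3 or WT replicate 2, 3 or 4 (0.77 to 1.05, adjusted p up to 0.0973). Its partner Kcnj5 was at 161 ± 44.0 and 101 ± 27.5 CPM (0.66 ± 0.25, adjusted p = 0.15). Kcnj2, the main Kir2 gene of the resting potential, was at 35.9 ± 9.62 and 43.8 ± 8.85 CPM in uninjected KO and WT and at 37.1 ± 2.02 and 38.3 ± 5.33 CPM in KO/GFP and WT/GFP (adjusted p = 0.475 and 0.94). The KATP pores Kcnj11 and Kcnj8 were not called, and neither was the Kir2 gene Kcnj12 in the full set of libraries (26.6 ± 5.76 CPM in uninjected KO and 17.3 ± 2.56 in WT).

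Of the small-conductance calcium-activated channel genes, Kcnn2 and Kcnn3 were called higher in KO/GFP hearts and Kcnn1 was not (0.41 ± 0.22, adjusted p = 0.249), beside 6.43% of all genes called higher. Kcnn2 was at 16.8, 14.7, 17.8 and 15.9 CPM in KO/GFP and at 8.55, 10.7, 12.1 and 11.5 CPM in WT/GFP, without overlap (0.57 ± 0.12, adjusted p = 0.00548), and at 18.4 ± 1.29 and 15.5 ± 2.09 CPM in uninjected KO and WT (0.24 ± 0.12, adjusted p = 0.297). Kcnn3 varied widely within groups, at 5.34, 6.996, 23.0 and 16.1 CPM in KO/GFP and 1.37, 4.18, 5.82 and 3.23 CPM in WT/GFP. In uninjected hearts it was at 0.972, 11.1, 20.5 and 13.3 CPM in KO and at 12.9, 17.3, 13.2 and 13.7 CPM in WT, overlapping groups with a difference of -0.71 ± 0.63 (adjusted p = 0.57). Without KO replicate 1, the library low in long transcripts, the difference was 0.03 ± 0.20 (adjusted p = 0.943). The KO/GFP difference of 1.47 ± 0.45 (adjusted p = 0.0404) was lost in 7 of 16 fits that each left out 1 library. These were the fits without WT/GFP replicate 1, 2 or 4, KO/GFP replicate 3 or 4, WT/YAP replicate 4 or KO/YAP replicate 2 (1.14 to 1.55, adjusted p up to 0.125). The sodium-activated channel Kcnt2 was at 4.97 ± 1.01 CPM in KO/YAP and 2.74 ± 0.368 in KO/GFP (0.66 ± 0.16, adjusted p = 0.00929) and at 4.15 ± 0.177 in WT/GFP.

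Sodium channel genes were called in each of the 3 comparisons. Scn10a, the NaV1.8 gene, was at 21.1, 21.4, 32.8 and 24.1 CPM in uninjected KO and at 14.3, 12.3, 12.3 and 12.0 CPM in WT (0.90 ± 0.15, adjusted p = 0.0109), a call that held without any single library. In KO/GFP and WT/GFP hearts it was at 6.93 ± 1.66 and 3.95 ± 1.28 CPM (0.69 ± 0.26, adjusted p = 0.0874). Scn3a, a sodium channel best known from embryonic neurons, was at 6.95, 4.45, 4.74 and 9.09 CPM in KO/GFP, 2.03, 1.62, 2.39 and 3.12 CPM in WT/GFP and 4.45, 2.04, 3.37 and 2.86 CPM in KO/YAP. The first difference was 1.12 ± 0.23 (adjusted p = 0.00408) and the second -0.79 ± 0.23 (adjusted p = 0.0299). The first held without any single library and the second was lost without KO/GFP replicate 1 or 4 or KO/YAP replicate 2 or 4 (-0.62 to -0.76, adjusted p up to 0.0967). The summed CPM of the listed neuron and glia markers was 24.5 to 58.3 in KO/GFP and 30.5 to 41.3 in WT/GFP, and Th and Snap25 were not listed. The beta subunit Scn3b was lower in KO/YAP (1.49 ± 0.441 CPM) than in KO/GFP (3.76 ± 2.11 CPM), where replicate 2 was at 6.93 CPM and the others at 2.63 to 2.79 CPM. The Scn3b fall of 0.87 ± 0.26 (adjusted p = 0.0362) was 0.59 and no longer called without that library (adjusted p = 0.0862). It was also lost without KO/YAP replicate 2, 3 or 4 (adjusted p up to 0.0825).

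The L-type gene Cacna1c was higher in KO/GFP, at 384, 346.9, 421 and 465 CPM, than in WT/GFP, at 171, 207, 287 and 279 CPM, by 0.80 ± 0.15 (adjusted p = 0.00229), and this held without any single library. KO/YAP libraries were at 288, 312, 254 and 248 CPM, below all KO/GFP libraries (-0.55 ± 0.15, adjusted p = 0.0198). It was lost without KO/GFP replicate 4 or KO/YAP replicate 3 or 4 (-0.48 to -0.51, adjusted p up to 0.0612). In uninjected hearts the call depended on the library low in long transcripts: the difference was 0.20 ± 0.30 (adjusted p = 0.743) with KO replicate 1 and 0.54 ± 0.13 (adjusted p = 0.0353) without it. Without KO/GFP replicate 2 the KO/GFP difference was 0.87 ± 0.16. The other L-type pores were low, and Cacna1d was called with YAP alone (4.79 ± 0.507 CPM in KO/GFP and 7.53 ± 1.5 in KO/YAP, 0.55 ± 0.18, adjusted p = 0.0449). This held in 6 of 16 fits that each left out 1 library (0.44 and an adjusted p of 0.14 without KO/YAP replicate 1).

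Cacna1a, the P/Q-type calcium channel best known from nerve terminals, had the largest change of any channel gene in uninjected hearts. It was at 3.06, 2.01, 1.70 and 2.78 CPM in KO and at 9.99, 10.7, 14.0 and 9.35 CPM in WT, a log2 fold change of -1.83 ± 0.18 (adjusted p = 0.00126) that held without any single library and at which KO stood at 0.281 of WT on the CPM + 1 scale. The sums of neuron and glia markers there were 29.4 to 36.0 CPM in KO and 28.4 to 35.5 CPM in WT. In injected hearts KO/GFP was at 7.26, 7.32, 6.73 and 3.80 CPM and WT/GFP at 9.38, 7.03, 10.9 and 14.2 CPM (-0.64 ± 0.26, adjusted p = 0.114). With YAP, KO hearts reached 13.1, 8.53, 15.8 and 23.8 CPM (1.12 ± 0.26, adjusted p = 0.00829). WT/YAP hearts, at 20.7, 21.5, 20.6 and 26.8 CPM, were also above every WT/GFP library (1.07 ± 0.26), but the adjusted p was 0.585 in a comparison that called no gene, and the genotype by YAP interaction was 0.05 ± 0.36 (adjusted p = 0.96).

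Of 4 calcium channel beta subunits, 1 was called lower in KO/GFP and 1 higher with YAP. No alpha2delta or gamma subunit was called in the 3 comparisons with all libraries. Without KO/GFP replicate 2, the gamma gene Cacng7 was called lower in KO/GFP (-0.40 ± 0.13, adjusted p = 0.0391). In that fit the alpha2delta gene Cacna2d2 was called lower with YAP (-0.68 ± 0.20, adjusted p = 0.0318). Of all genes, 7.22% were lower in KO/GFP and 7.85% were higher with YAP. Of those tested in any of the 3 comparisons, 19.0% were called in at least 1. The beta subunit Cacnb3 was lower in KO/GFP, at 12.0, 21.7, 14.9 and 9.53 CPM, than in WT/GFP, at 24.03, 23.2, 18.9 and 18.7 CPM (-0.56 ± 0.18, adjusted p = 0.0473), and the call held in 1 of 16 fits that each left out 1 library, the one without KO/GFP replicate 2 (-0.77 ± 0.14). Cacnb1 was at 7.10, 8.06, 10.98 and 11.3 CPM in KO/YAP and at 3.91, 6.93, 6.14 and 5.84 CPM in KO/GFP (0.63 ± 0.18, adjusted p = 0.0246), lost without KO/GFP replicate 1 or KO/YAP replicate 3 or 4 (0.49 to 0.55, adjusted p up to 0.0843). Cacnb2, the main cardiac beta subunit, was not called. The alpha2delta subunit Cacna2d1 split the injected libraries within each group. In 4 of 4 groups some libraries were at 21.1 to 36.1 CPM and others at 72.3 to 101 CPM, in unequal numbers. Cacna2d1 was at 95.5, 89.1, 94.7 and 32.8 CPM in KO/GFP and at 21.1, 23.8, 22.8 and 94.5 CPM in WT/GFP. Its difference of 1.12 ± 0.54 was within that spread (adjusted p = 0.19).

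The genotype by YAP interaction asks whether YAP changed a gene differently in KO and in WT hearts. It was called for 4 of 62 channel genes, 2 positive and 2 negative, 6.45% of them, beside 7.56% of all genes. Hcn2 was 0.95 higher with YAP in KO hearts and 0.22 lower in WT hearts, an interaction of 1.17 ± 0.24 (adjusted p = 0.00893). WT/YAP libraries were at 15.8, 19.1, 19.8 and 22.6 CPM. Kcnd2 had an interaction of 0.99 ± 0.29 (adjusted p = 0.0485), which held in 4 of 16 fits that each left out 1 library and in the others was 0.81 to 1.06 (adjusted p up to 0.0972). Cacna1h, at 41.7, 28.9, 33.4 and 28.5 CPM in WT/YAP, had -1.20 ± 0.23 (adjusted p = 0.00673). Cacna1c, at 267, 332, 331 and 309.6 CPM in WT/YAP, had -0.97 ± 0.21 (adjusted p = 0.0124). The interactions of Hcn2, Cacna1h and Cacna1c held without any single library. Between KO/YAP and WT/GFP the log2 difference was -0.01 ± 0.17 for Cacna1h, 0.25 ± 0.15 for Cacna1c, 0.31 ± 0.17 for Hcn2 and 0.33 ± 0.21 for Kcnd2, none of them called. The interaction is a contrast that also holds the KO/GFP libraries.

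**Figure D5:**
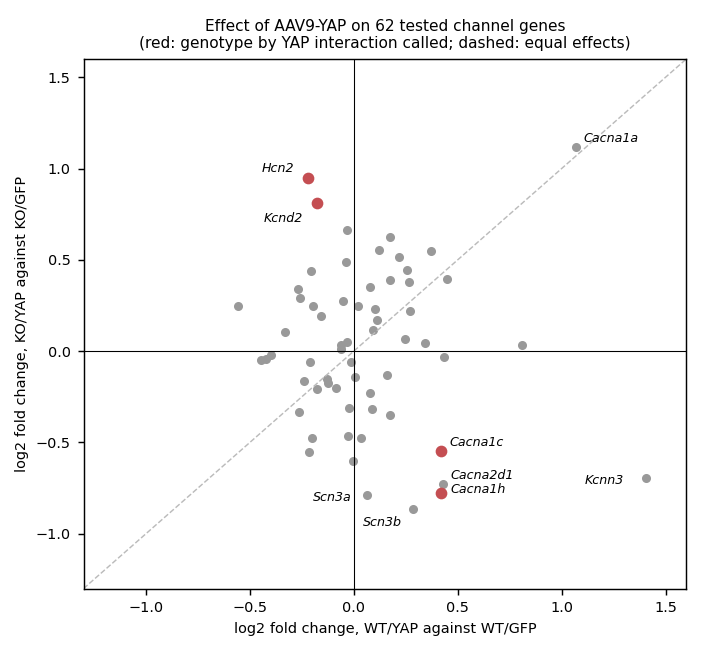
log2 fold change (log2(CPM + 1) scale) of the 62 tested channel genes with YAP in WT hearts (horizontal axis, WT/YAP against WT/GFP) and in KO hearts (vertical axis, KO/YAP against KO/GFP), each point 1 gene; the dashed line marks equal effects and red marks the 4 genes whose interaction was called. Hcn2 and Kcnd2 lie above the line, Cacna1c and Cacna1h below it, and Cacna1a lies close to it at 1.07 and 1.12.

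Besides Kcnc2, the channel genes that missed the filter in injected hearts were low in every group. Kcnk13 was at 1.31, 1.51, 1.79 and 1.15 CPM in WT/GFP and at 0.621, 0, 0.234 and 0 CPM in KO/GFP, and without the filter it was called lower in KO/GFP (-1.03, adjusted p = 0.00244). Kcnn4 was below 1.7 CPM in all 16 libraries. In total 27 of the 63 channel genes tested (42.9%) were called in at least 1 of the 3 comparisons, beside 19.0% of 16461 genes tested in any of them. Another 36 were tested in all 3 and never called, and the other 3 of the 66, listed in injected hearts alone, were not tested. The 16461 include genes tested in uninjected or in injected hearts alone, which had fewer comparisons to be called in. Among the channel genes tested this held for Kcnc2 only, so these shares are not fully alike. A listed share of exon with a gene on the opposite strand was annotated for 26 of the 66, Kcnq1, Cacna1h, Cacna1a, Kcnh7, Kcnd3 and Kcnn2 among them, and reads of such pairs may not have been told apart.

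Genes that work with these channels were listed separately: gap junctions, pumps, scaffolds, calmodulin and other regulators, 54 in all, of which 49 were listed and tested. In uninjected KO hearts 3 were higher and 1 lower, in KO/GFP 11 were higher and 3 lower, and in KO/YAP against KO/GFP 3 were higher and 10 lower, where 6.69%, 13.7% and 14.8% of all genes were called in either direction. The list included 9 transcription factors known to act on ventricular channel genes, of which 2 and 4 were higher in the KO comparisons and 4 lower with YAP, beside 3.23%, 6.43% and 6.92% of all genes in those directions. Irx3 was at 61.6 ± 15.5 and 27.8 ± 6.5 CPM in uninjected KO and WT (1.11 ± 0.21, adjusted p = 0.0163), at 82.9 ± 23.7 and 36.1 ± 17.1 CPM in KO/GFP and WT/GFP (1.26 ± 0.28, adjusted p = 0.00734) and at 22.6 ± 6.21 CPM in KO/YAP (fell by 1.83 ± 0.28, adjusted p = 0.000569). Irx4, a ventricle-specific factor, rose by 0.48 ± 0.11 and 0.52 ± 0.12 in the KO comparisons and fell by 0.73 ± 0.12 with YAP. Hey2 was at 24.8 ± 13.3 CPM in KO/GFP, 8.23 ± 2.80 in WT/GFP and 4.83 ± 0.807 in KO/YAP, and Tbx5 at 32.4 ± 7.3, 17.4 ± 2.72 and 17.7 ± 3.56 CPM, all 4 of these differences being called. Irx5, known as a repressor of Kcnd2, was at 10.9 ± 1.07 and 7.69 ± 1.16 CPM in uninjected KO and WT (0.46 ± 0.13, adjusted p = 0.0741).

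Caveolin Cav3, a membrane protein that binds channels, was 0.45 ± 0.08 higher in KO/GFP and fell by 0.40 ± 0.08 with YAP. The gap junction gene Gja1 was lower in uninjected KO, at 433 ± 48.9 against 618 ± 77.0 CPM (-0.51 ± 0.12, adjusted p = 0.0428), and was 0.21 ± 0.12 higher in KO/GFP (adjusted p = 0.306). The calmodulin gene Calm2 was lower in KO/GFP, by 0.34 ± 0.11, and higher with YAP.

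Markers of other cells moved with the groups. Fibroblast markers summed to 1075 to 1491 CPM in uninjected KO and 2005 to 2142 CPM in WT, to 1117 to 1588 CPM in KO/GFP and 1930 to 2256 CPM in WT/GFP, and to 1928 to 2488 CPM in KO/YAP, with 2 of 5, 3 of 5 and 3 of 5 called in these comparisons. All 6 markers of macrophages and neutrophils were called in each of the 3, with 4 macrophage genes lower and the neutrophil genes S100a8 and S100a9 higher in KO, and the reverse with YAP. Of 5 endothelial markers, Vwf was higher in both KO comparisons (1.19 ± 0.21 and 1.45 ± 0.28) and fell by 1.33 ± 0.28 with YAP. Kdr was lower (-0.60 ± 0.13 and -0.43 ± 0.08) and 0.40 ± 0.08 higher with YAP. Cdh5 was called lower in KO/GFP and higher with YAP. Of 6 smooth muscle and pericyte markers Myh11 was lower in both KO comparisons, and Myh11, Acta2 and Rgs5 were higher with YAP. This list summed to 1500 to 2020 CPM in KO/GFP, 1970 to 2227 CPM in WT/GFP and 2348 to 2808 CPM in KO/YAP. Of the erythroid markers, 3 of 5 were lower in KO/GFP, with sums of 735 to 1782 CPM against 1982 to 5151 CPM in WT/GFP. None was called in uninjected KO or with YAP. Cardiomyocyte markers summed to 65592 to 83812 CPM in uninjected KO and 59236 to 65954 CPM in WT, and to 58288 to 68506 and 50477 to 64850 CPM in KO/GFP and WT/GFP, with 2 of 8 higher in each. In KO/YAP they summed to 56123 to 60579 CPM, and 2 of 8 were lower than in KO/GFP, Tnnt2 (-0.62 ± 0.11) and Pln (-0.41 ± 0.10). Atrial markers summed to 119 to 309.6 CPM in uninjected KO and 144 to 183 CPM in WT, to 214.1 to 426 CPM in KO/GFP and 95.0 to 311 CPM in WT/GFP, and to 35.2 to 172 CPM in KO/YAP. In injected hearts most of that sum was Nppa, which also rises in stressed ventricle. The skeletal muscle markers Myh1, Myh4, Actn3 and Pvalb were not listed. The part of these markers in the channel results was not tested.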

How the data were processed

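After adapter trimming (Cutadapt 2.3), the authors mapped reads to GRCm38 by HISAT2 2.1.0, assembled and counted them with StringTie 1.3.4 and its count script, and deposited a signal per gene and library, the CPM from edgeR 3.26.1. The columns sum to 942566 to 1134439, so library sizes had been scaled for composition. At least 99.96% of values in each library were whole multiples of 1 read (tolerance 0.05 read), which gave back the reads. Libraries were strand-specific and poly(A)-selected, with 50-base single-end reads for uninjected hearts and 150-base paired-end reads for injected hearts.

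Genes over 1 CPM in at least 4 of 8 uninjected or 8 of 16 injected libraries were tested on log2(CPM + 1) with limma 3.58.1 (trend), the 16 injected libraries in 1 model, p-values adjusted by Benjamini-Hochberg over all genes. edgeR 4.0.16 and DESeq2 1.42.0 on recovered reads were alternatives. The limma script was tested on simulated data. The study used another test, Fisher's exact test. Named genes were those called, a fixed list of ventricular channel genes and the 5 highest per kb, and others, such as Kcnn1, Cacng6 and Kcnk13, were named after their values were seen; marker and partner lists were described by counts. Some named genes are not reported here, though they stay in all counts of calls and marker sums. Members and lists were chosen with earlier results of these data known. Nothing in the labels says that a replicate number marks a shared animal, and same-numbered libraries did not deviate together. The paper states that controls were littermates and that each RNA-seq group held both sexes. Litter need not follow the replicate number and was not modelled.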

Additional observations from a re-analysis of the deposited data

Results flagged for a closer look

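In groups of 4 libraries, 20 of 228 sets of values had 1 library far from the others by Dixon's test, where chance gives 11.4. Cacna2d1 had 5 of them, at 34.5 CPM in uninjected KO replicate 1, 90.5 in uninjected WT replicate 1, 32.8 in KO/GFP replicate 4, 94.5 in WT/GFP replicate 4 and 101 in KO/YAP replicate 1. Uninjected WT replicate 1 also stood apart for Cacnb1 (7.64 CPM), Kcnk3 (108 CPM) and Scn10a (14.3 CPM), and KO/GFP replicate 4 for Cacna1a (3.80 CPM) and Cacna1g (39.4 CPM). Others were Cacna1h at 45.0 CPM in uninjected KO replicate 4 and Hcn4 at 11.6 in uninjected WT replicate 2. Scn3b was at 6.93 CPM in KO/GFP replicate 2 and 2.14 in KO/YAP replicate 1, Kcnip2 at 78.0 in KO/YAP replicate 4 and Kcnj5 at 57.7 in WT/GFP replicate 2. In WT/YAP, Kcnq1 was at 58.8 CPM and Kcnj8 at 45.3 CPM in replicate 1, Kcnj3 at 12.7 CPM in replicate 2 and Cacna1a at 26.8 CPM in replicate 4.

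The YAP effect differed between KO and WT hearts by the interaction term for Hcn2 (1.17), Kcnd2 (0.99), Cacna1c (-0.97) and Cacna1h (-1.20), in log2 units.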

How the results depend on the processing

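In uninjected hearts the 14 channel genes called became 1 (Cacna1a) with the replicate number as a block, 24 with DESeq2 and 4 to 19 when single libraries were left out. Same-numbered libraries did not deviate together (r from -0.19 to 0.098 over 4 pairs, and from -0.17 to 0.14 over 24 pairs in injected hearts), and 1 of 8 and 3 of 16 libraries correlated best with their own number. With that block the KO/GFP, KO/YAP and interaction counts were 8, 12 and 4. With the Y-chromosome gene Ddx3y as a covariate for sex, the uninjected count was 21 and these counts were 12, 13 and 4. Fitting only the compared groups gave 5 calls in KO/GFP in place of 11 and 7 in KO/YAP in place of 15. Those 5 were all higher, so the lower calls of Hcn2, Kcnk6 and Cacnb3 in KO/GFP were lost. Leaving out single libraries gave 7 to 14 in KO/GFP and 8 to 15 in KO/YAP. KO/YAP against WT/YAP went from 0 to 1 with DESeq2 and with the edgeR exact test. The interaction went from 4 to 7 with DESeq2 and to 3 to 5 without single libraries. Of 44 called values, none changed direction under any alternative, and 44 kept their call with DESeq2, with a pseudocount of 0.1, with no filter and with median-ratio scaling, 34 with plain CPM scaling (chosen after the data were seen) and 24 with the block. Under plain CPM scaling the interaction split was 4 higher and 2 lower, and that of all genes 884 and 345. The causes were not tested. A single read was worth 0.0329 to 0.0656 CPM, so channel genes near 1 CPM rest on few reads.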
